A study of Mus musculus with 19 samples.

Results

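The response of luminal cells (LCs) to progesterone added to estradiol (E2) was measured in wild-type (WT) mice, as the difference between 5 mice with E2+Pg and 4 mice with E2 alone. These 9 samples were taken by their genotype and treatment labels from 19 in the series, the others being LCs of C451A-ERα mice, whose estrogen receptor α carries a point mutation at its palmitoylation site, with E2 (5 mice) or E2+Pg (5 mice). All mice were C57Bl/6N females of 8 weeks, ovariectomized at 24 days of age by the labels (the study's text gives another age), so that they lacked ovarian hormones. They received a hormone pellet 10 days later, and the study's methods give 21 days of treatment. Pellets were made to release 0.01 mg of E2 over 60 days, and those of the E2+Pg groups 1.5 mg of progesterone besides. There was no group with progesterone alone and none without hormone. LCs were sorted as CD24+CD29lo cells after removal of CD45+ and CD31+ cells. Each sample, on 1 single-colour Agilent array, is counted here as 1 mouse.

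Progesterone acts through its receptor, a transcription factor whose gene is itself induced by E2 in a subset of LCs called hormone-sensing cells. These cells signal to neighbours that lack the receptor through secreted factors such as RANKL (Tnfsf11), Wnt4 and amphiregulin (Areg). In the adult gland progesterone is known for side branching, for growth of alveolar buds and, together with prolactin, for preparing LCs for milk secretion.

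Values are log2 of the median signal of a probe, normalized by quantiles over the 19 arrays, and each gene is read by its brightest probe. A gene is called higher or lower where limma, fitted to all 19 arrays, gave a Benjamini-Hochberg adjusted p below 0.05 and a fold change above 1.5. Between 27710 and 30731 probes were well above background with E2 and between 26478 and 29943 with E2+Pg (two-sided exact permutation test, p = 0.413). E2 mouse 3 correlated less with its own group (mean r over genes 0.978) than the other E2 mice did (0.987 to 0.988). Of the E2+Pg mice, mouse 5 had the lowest mean r with its own group (0.971), and mouse 1 correlated more with the E2 mice (0.982) than with its own group (0.975). All 10 pan-luminal marker genes were well above background in every mouse, Krt8 at 17.23 to 17.80, and so were all 12 measured basal and myoepithelial markers. None of the 10 pan-luminal markers was called, but 5 were lower in every E2+Pg mouse, against 2.86% of all genes (median log2 fold change −0.36). The summed signal of the 10 was 783090 to 878040 with E2 and 613620 to 754500 with E2+Pg. E2+Pg mouse 5 stood apart by its genes of other cells. The average deviation from the 19-array mean of each gene was 1.70 for 7 lymphocyte markers in this mouse against −0.24 to 0.27 in the other 8 WT mice. For 10 muscle and nerve markers it was 2.01 there, −1.41 to −0.77 in the other E2+Pg mice and 0.25 to 0.90 with E2. For 12 myeloid markers E2+Pg mouse 1 was highest (0.88), followed by mouse 5 (0.74), with −0.52 to 0.37 in the remaining WT mice. In such bulk samples, fewer cells of a type and less RNA per cell cannot be told apart.

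With progesterone 122 genes were higher (0.59% of 20666 genes tested) and 152 lower (0.736%), 1.33% in either direction. The called genes had a median fold change of 2.08 when higher and of 2.27 when lower. Groups did not overlap for 120 of the 122 higher genes, against 5.83% of all genes, and for 121 of the 152 lower genes, against 2.86% of all genes. On the 4 slides that held a mouse of both groups, 121 of the higher and 129 of the lower genes differed in that direction on every slide. None of the 274 genes changed sign under any of 23 alternatives, but the number of calls varied. The genes were selected on these same arrays. Separate groups, agreement over slides and steady signs therefore follow in part from that selection and do not count as support. Without E2 mouse 4 there were 15 higher and 14 lower genes, without E2 mouse 3 there were 186 and 391, and in all 27 genes were called in each of the 9 fits that left out 1 WT mouse. When only the 4 shared slides were used, with the slide as a block, 2 genes passed, Rspo1 and Entpd8.

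The largest rise was that of Calca, the gene of calcitonin and of calcitonin gene-related peptide, a peptide hormone gene described as a progesterone target in uterine epithelium. Its probe (chromosome 7 of mm9, 121776832 to 121776891) read 4.88, 5.05, 4.99 and 4.75 in E2 mice 1 to 4, none of them well above background. It read 11.38, 9.67, 11.03, 11.05 and 12.59 in E2+Pg mice 1 to 5, all well above background. Every mouse with progesterone had a bright signal where no E2 mouse was well above background, and Calca was at least 68.6-fold higher (limma adjusted p = 0.00632; two-sided exact permutation test, p = 0.0159, the smallest that 4 against 5 mice can give). That bound holds for the main settings, and the log2 fold change of Calca ran from 3.74 (mean of its probes) to 8.78 (the scanner's processed signal) around the main 6.23. A dimmer probe of the gene differed by 1.25 on the log2 scale. Rspo1 encodes R-spondin 1, a secreted protein that strengthens Wnt signaling at the receptor (probe on chromosome 4 of mm9, 124686270 to 124686329). Its log2 signal was 7.38, 7.72, 6.47 and 7.10 with E2 and 11.80, 11.80, 12.55, 12.18 and 12.37 with E2+Pg. Every E2+Pg mouse lay more than 4 log2 units above every E2 mouse, a 31.4-fold rise (log2 fold change 4.97, standard error 0.80, limma adjusted p = 0.00632). Rspo1 was called under all 23 alternatives, with adjusted p from 5.38e-05 to 0.0415.

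Among 13 genes listed as paracrine targets of the progesterone receptor, Calca was called higher and Wnt5a lower, beside 0.59% and 0.736% of all genes. The median log2 fold change was 0.10, against 0.04 over all genes. Wnt5a, a Wnt ligand that mostly signals without β-catenin, read 11.45, 11.57, 11.62 and 11.59 with E2 and 9.88, 9.73, 10.28, 10.61 and 10.58 with E2+Pg. The E2 mice were nearly level and every E2+Pg mouse was lower, a 2.53-fold fall (log2 fold change −1.34, standard error 0.25, limma adjusted p = 0.0139). Tnfsf11 was not well above background in any E2 mouse (4.64 to 5.25) and was so in 4 of 5 E2+Pg mice (7.08, 6.21, 7.04, 5.13 and 7.70). Mouse 4 was the exception, within the range of the E2 mice. The mean was at least 3.05-fold higher with E2+Pg, but the limma adjusted p of 0.0984 did not pass. That bound holds for the brightest probe and the main settings. A dimmer Tnfsf11 probe differed by 1.11 on the log2 scale, and the log2 fold change ran from 1.18 to 3.61 under the alternatives. Tnfrsf11a, the receptor for RANKL, had a log2 fold change of 0.21 (standard error 0.26). Wnt4 read 10.85, 9.76, 12.25 and 10.71 with E2 and 11.28, 10.91, 10.57, 10.37 and 11.81 with E2+Pg, groups that overlapped fully (log2 fold change 0.10, standard error 0.36, limma adjusted p = 0.909). Areg, an EGF receptor ligand induced by E2, had 13.38 to 14.08 with E2 and 11.65 to 12.87 with E2+Pg. All E2+Pg mice were lower, with a log2 fold change of −1.27 (standard error 0.39, limma adjusted p = 0.106). The cyclin gene Ccnd1 (0.21, standard error 0.44) and the alveolar regulator Elf5 (1.03, standard error 0.52) had adjusted p values from limma of 0.834 and 0.338.

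**Figure D1:**
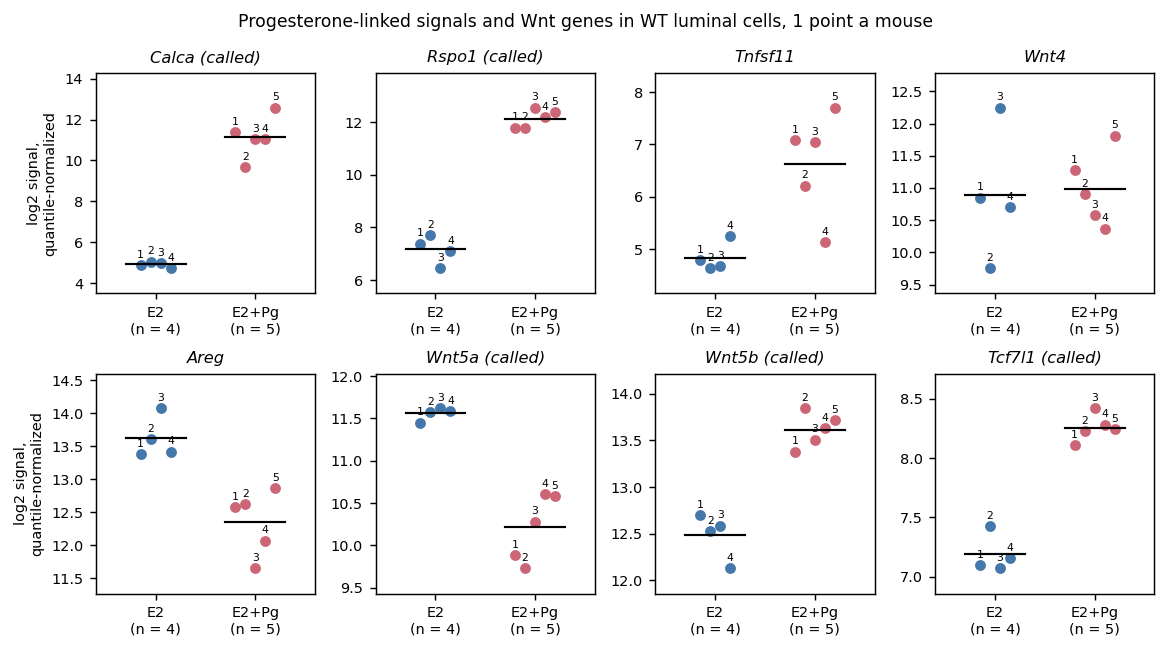
Log2 quantile-normalized signal (y axis) of 8 genes in LCs of WT mice with E2 (blue, n = 4) or E2+Pg (red, n = 5). Each point is 1 mouse with its number and lines are group means. Calca and Rspo1 separate by more than 4 log2 units, Wnt5a lies lower in every E2+Pg mouse, Wnt4 overlaps, and Tnfsf11 is high in 4 of 5 E2+Pg mice.

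Further Wnt genes moved besides Rspo1 and Wnt5a. Of 38 measured genes of the pathway 3 were higher and 1 lower (0.59% and 0.736% of all genes), with a median log2 fold change of 0.07. Wnt5b, a ligand related to Wnt5a, had 12.70, 12.53, 12.59 and 12.13 with E2 and 13.38, 13.85, 13.51, 13.63 and 13.72 with E2+Pg. It rose 2.19-fold (log2 fold change 1.13, standard error 0.16, limma adjusted p = 0.00438) while Wnt5a fell in the same mice. Tcf7l1, a DNA-binding partner of β-catenin that mostly represses its targets, rose 2.10-fold (log2 fold change 1.07, standard error 0.24, limma adjusted p = 0.0303), from 7.07 to 7.42 with E2 to 8.11 to 8.42 with E2+Pg.

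The other large rises were in genes of several kinds. Bcl2l15, an apoptosis regulator of the BCL2 family, went from 6.61, 6.84, 5.81 and 6.62 with E2 to 9.99, 9.49, 9.89, 10.60 and 9.52 with E2+Pg (10.8-fold, limma adjusted p = 0.0128). A dimmer probe of Bcl2l15 differed by 0.74 on the log2 scale. Entpd8, an enzyme that removes phosphates from extracellular nucleotides, went from 5.64, 5.38, 5.85 and 5.59 to 8.74, 8.55, 8.92, 8.96 and 9.62 (log2 fold change 3.34, limma adjusted p = 0.0152). Groups stood apart by more than 2 log2 units for both genes. Entpd8 was well above background in 2 of 4 E2 mice and in all 5 E2+Pg mice. Its log2 fold change ran from 2.69 to 4.48 under the alternatives. Alox12e, a lipoxygenase, rose 5.03-fold (8.48 ± 0.54 with E2 and 10.81 ± 0.34 with E2+Pg, SD). C3, the central complement protein, rose 4.19-fold from 12.54 ± 0.77 to 14.61 ± 0.20 (SD), and Bcl2a1d, a survival gene also of the BCL2 family, rose 3.93-fold. The C3 call held under 9 of the 23 alternatives. Fbn2, the microfibril protein fibrillin 2, rose 5.59-fold, Susd4, a complement regulator, 4.31-fold, and Sh3gl3, an endocytosis protein, 5.75-fold. Bex4 and Bex1, small neighbouring X-linked genes expressed mainly in neurons, rose 4.35-fold and 3.65-fold, and both calls held under 22 alternatives. Their probes lie side by side on the X chromosome of mm9 (132674810 to 132674869 and 132674650 to 132674709). The 2 probes may share transcripts, so these rises may not be separate. Asic2, a proton-gated channel, rose 3.77-fold, from 5.19 to 5.77 with E2 to 7.02 to 8.16 with E2+Pg, and Scgb3a1, a secretoglobin, rose 3.66-fold. Cdh2, the gene of N-cadherin, had 5.67 to 6.00 with E2 and 8.49, 8.13, 8.13, 8.34 and 6.39 with E2+Pg. Mouse 5, the mouse with high muscle and lymphocyte markers, lay far below the other 4, and the call for Cdh2 (4.09-fold, limma adjusted p = 0.0454) held under 8 of 22 alternatives. Smaller rises included Heyl, a Notch target (2.14-fold), and Ephb2 and Ephb4, receptors for membrane-bound ephrins (2.86-fold and 1.56-fold). A dimmer Ephb2 probe differed by −0.26 on the log2 scale and 1 of 3 Ephb4 probes by 0.01, so the probes of these 2 genes disagreed.

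The falls were led by genes of the interferon response, which cells use against viruses. Of 30 genes on this list 16 were called lower and none higher, beside 0.736% of all genes, and all 30 had a log2 fold change below 0 (median −1.82, against 0.04 over all genes). Groups did not overlap for 10 of them, against 2.86% of all genes. Oas2, an enzyme that senses double-stranded RNA, fell 9.49-fold, from 11.02, 12.01, 10.01 and 11.27 with E2 to 8.00, 7.33, 7.33, 7.82 and 8.67 with E2+Pg (log2 fold change −3.25, standard error 0.43, limma adjusted p = 0.00237). Stat2 fell 3.35-fold from 10.30, 11.35, 9.96 and 10.87 to 8.82, 8.86, 8.83, 8.72 and 9.16. For Oas2 and Stat2 every E2 mouse was higher than every E2+Pg mouse, and both calls held under 22 of 23 alternatives, although a dimmer Stat2 probe differed by −0.57 on the log2 scale. Isg15, a ubiquitin-like protein attached to other proteins during the response, read 13.87, 14.65, 11.67 and 13.85 with E2 and 10.88, 11.22, 11.45, 12.24 and 11.21 with E2+Pg. Here E2 mouse 3 lay inside the E2+Pg range, and the fall was 4.31-fold (log2 fold change −2.11, standard error 0.45, limma adjusted p = 0.0267). Irf7, which amplifies interferon production, fell 4.14-fold (13.78, 14.63, 11.86 and 13.83 against 10.80, 11.27, 11.54, 12.17 and 11.60), with the same overlap. Mx2, which RefSeq lists as a transcribed pseudogene in the mouse, fell 5.68-fold, and Oas1a and Oasl2 fell 4.39-fold and 4.35-fold. Irf9, a transcription factor of the response, fell 1.67-fold, and its call held under 9 of 23 alternatives. Rtp4, Xaf1, Oas3, Dhx58, Usp18, Ifih1 and Oasl1 were also called, Usp18 under 10 of 23 alternatives. Rsad2 (−2.63, standard error 0.66) and Ifit3 (−2.57, standard error 0.82), antiviral effectors, had limma adjusted p values of 0.0551 and 0.122. Ifnb1, the gene of interferon β, which was outside the list and was chosen after its values were seen, fell 3.63-fold (limma adjusted p = 0.0483), with 7.75, 8.75, 6.31 and 8.83 with E2 and 6.33, 6.33, 5.84, 6.62 and 5.13 with E2+Pg. The Ifnb1 call held under 9 of 22 alternatives.

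The signal of the interferon response genes differed more between E2 mice than between E2+Pg mice. The average deviation of the 30 genes from their 19-array means was 1.44, 2.34, −0.20 and 1.68 in E2 mice 1 to 4. In E2+Pg mice 1 to 5 it was −0.72, −0.70, −0.31, 0.03 and −0.58. E2 mouse 3 thus lay below 1 of the E2+Pg mice, on its own slide, and the other 3 E2 mice lay above all E2+Pg mice. Without E2 mouse 3, 28 of the 30 were called lower (median −2.30), among 391 lower genes in all. Without E2 mouse 4 the count was 2 (median −1.67), among 14. Without E2 mouse 2 it was 5 (median −1.42), among 39, and without E2 mouse 1 it was 8 (median −1.81), among 42. When the 9 WT arrays were fitted without the C451A-ERα arrays, 6 of the 30 were called (median −1.83), among 144. With the slide as a fixed block 2 were called, among 41. None was called when the WT arrays of the shared slides were fitted alone (median −1.85), where no gene was called lower. With the values normalized by the authors 21 of the 30 were called, among 208 lower genes in all. With normexp background correction 18 were called, among 159, and with array weights 30, among 895.

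**Figure D2:**
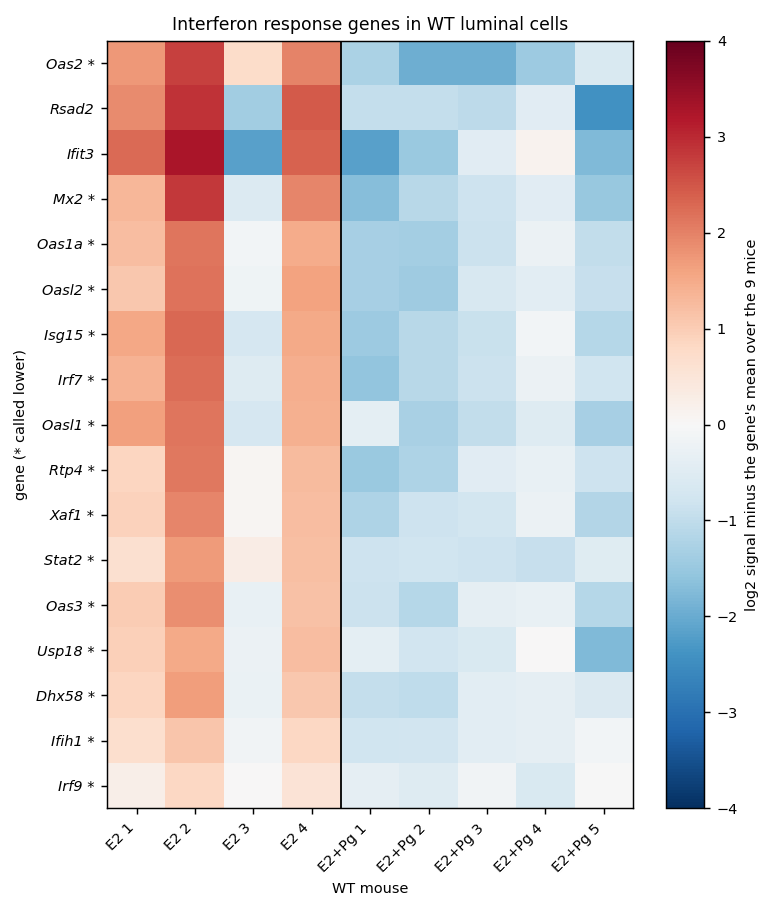
Log2 signal of 17 interferon response genes named in the text (rows, ordered by fold change, called genes starred) in the 9 WT mice (columns), as the difference from the mean of each gene over those 9 mice (colour scale, red higher). E2 mice 1, 2 and 4 are red for nearly all genes, and E2 mouse 3 is pale or blue for most of them, like the E2+Pg mice.

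The promoters of the genes that fell were searched for the interferon-stimulated response element, a sequence bound by transcription factors of the response, written GAAANNGAA and read on both strands in the 250 bases before the RefSeq start (GRCm38.p6, the window listed first for a gene). It was chosen after the falls were seen, and its last letters are shared with the STAT motif TTCNNNGAA. It was found in 27 of the 118 lower genes with an entry (22.9%), in 3 of 88 higher genes (3.41%) and in 773 of all 12367 genes with an entry (6.25%). Of the 16 called interferon genes 10 had an entry and 5 held it. The core of the progesterone and glucocorticoid response element, ACANNNTGT, was in 2 of 88 higher genes (2.27%), 8 of 118 lower genes (6.78%) and 488 of 12367 genes (3.95%). STAT sites were in 11.4%, 4.24% and 6.24% of these groups in the same order, CHR (TTTGAA) in 13.6%, 16.1% and 11.5%, NF-Y (CCAAT) in 26.1%, 45.8% and 36.0%, and E2F (TTTCCCGC) in 1.14%, 0.847% and 1.58%. A match is a run of letters and not a shown binding site. Below are 3 falling interferon genes with repeated matches of the interferon element in capitals (Isg15, Oas1a and Oas3), and Oasl1, the called interferon gene whose window held the hormone receptor core, in capitals there.
Isg15 (chr4:156200819-156201068, minus strand): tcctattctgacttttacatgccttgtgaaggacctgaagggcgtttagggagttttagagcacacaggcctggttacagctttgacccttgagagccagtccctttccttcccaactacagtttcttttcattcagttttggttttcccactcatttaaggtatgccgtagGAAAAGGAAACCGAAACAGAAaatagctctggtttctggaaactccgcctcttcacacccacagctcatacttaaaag
Oas1a (chr5:120907526-120907775, minus strand): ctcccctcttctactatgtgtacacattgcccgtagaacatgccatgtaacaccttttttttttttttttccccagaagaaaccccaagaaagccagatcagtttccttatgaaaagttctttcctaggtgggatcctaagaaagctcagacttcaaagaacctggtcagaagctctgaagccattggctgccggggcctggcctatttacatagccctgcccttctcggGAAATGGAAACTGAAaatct
Oas3 (chr5:120777660-120777909, minus strand): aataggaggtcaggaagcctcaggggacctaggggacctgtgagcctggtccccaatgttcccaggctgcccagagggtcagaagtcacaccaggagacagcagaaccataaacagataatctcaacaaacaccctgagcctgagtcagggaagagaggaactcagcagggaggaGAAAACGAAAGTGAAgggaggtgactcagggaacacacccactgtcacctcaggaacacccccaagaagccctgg
Oasl1 (chr5:114922990-114923239, plus strand): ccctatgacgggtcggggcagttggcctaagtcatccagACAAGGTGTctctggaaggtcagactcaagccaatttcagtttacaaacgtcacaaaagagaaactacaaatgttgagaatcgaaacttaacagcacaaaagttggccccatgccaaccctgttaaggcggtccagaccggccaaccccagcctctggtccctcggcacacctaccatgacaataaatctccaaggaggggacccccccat

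Several of the largest falls outside the list were relatives of its members. Apol9a and Apol9b, near-identical apolipoprotein L genes whose probes may share transcripts, fell 6.26-fold and 6.19-fold, and Oas1f, a close copy of Oas1a, fell 4.25-fold. In both Apol9 genes E2 mouse 3 (10.62 and 10.22) lay inside the E2+Pg range. Socs1, the feedback inhibitor of JAK-STAT signaling, fell 2.19-fold, with an overlap of E2 mouse 3 (8.11) and E2+Pg mouse 4 (8.22), and the call held under 10 of 23 alternatives. Of 31 genes of JAK-STAT signaling and cytokine receptors 3 were lower and none higher, beside 0.736% and 0.59% of all genes. Stat2 and Socs1 were among them, and Stat2 was also counted on the interferon list. Csf2, the gene of the cytokine GM-CSF, fell 4.27-fold, from 8.45, 9.54, 5.91 and 8.24 to 5.99, 6.35, 5.59, 6.63 and 5.13, with E2 mouse 3 again inside the E2+Pg range, and the call held under 10 of 22 alternatives.

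Other large falls were outside this response, in genes whose groups did not overlap. Fam25c, a small gene of surface epithelia, fell 6.78-fold, from 12.90, 13.10, 15.07 and 13.48 with E2 to 10.09, 10.30, 10.71, 11.40 and 11.87 with E2+Pg (limma adjusted p = 0.0364), with E2 mouse 3 the highest of all. The Fam25c call held under 12 of 23 alternatives and in 1 of the 9 fits that left out 1 WT mouse. Inpp4b, a lipid phosphatase that restrains PI3K signaling, fell 5.12-fold, from 9.10, 9.15, 7.61 and 9.47 to 6.47, 6.65, 6.80, 6.35 and 6.10 (limma adjusted p = 0.00700). Hk2, a hexokinase that starts glycolysis, fell 2.48-fold, from 10.37, 10.28, 10.05 and 10.22 to 9.28, 8.91, 8.79, 8.83 and 8.77 (limma adjusted p = 0.00237). Every E2 mouse was above every E2+Pg mouse for these 3 genes, although E2 mouse 3 was the lowest E2 mouse for Inpp4b. Plekhs1, a gene of unsettled function, fell 4.19-fold. Gsr, glutathione reductase, fell 2.75-fold and Gpx1, glutathione peroxidase 1, fell 1.70-fold. They were the 2 called among 21 genes of glutathione and redox, where 0.736% of all genes were called lower. Mt2, a metal-binding metallothionein, fell 2.23-fold, from 16.57 to 17.09 with E2 to 15.54 to 16.04, and the call held under 10 of 23 alternatives. Mt2 was the 1 called gene of 16 measured targets shared by progesterone and glucocorticoid receptors (median log2 fold change −0.40), beside 0.736% of all genes called lower. Its neighbour Mt1 was lower in every E2+Pg mouse (−0.87, standard error 0.25, limma adjusted p = 0.0857). Fkbp5, a classical target of both receptors, was higher in every E2+Pg mouse (8.68 to 9.16 against 9.34 to 9.91) but did not pass (0.79, standard error 0.20, limma adjusted p = 0.0574), and Tsc22d3 (0.85, standard error 0.49) and Zbtb16 (0.14, standard error 0.53) overlapped. Col7a1, the collagen of anchoring fibrils, fell 3.36-fold and was the called gene of 42 collagens and matrix glycoproteins, beside 0.736% of all genes called lower. Epgn, an EGF family ligand, fell 3.27-fold, Ern1, the stress sensor of the endoplasmic reticulum, 1.89-fold, Robo1, the receptor of Slit, 1.57-fold, and Cdkn2a, a cell cycle inhibitor, 2.02-fold. The groups of these 5 genes did not overlap, but the Epgn call held under 9 of 23 alternatives, and dimmer probes of Ern1 and Robo1 differed by −0.34 and −0.45 on the log2 scale.

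Of 30 measured genes of cornified and squamous epithelium 2 were lower, Sprr1b (5.67-fold) and Nccrp1 (2.02-fold), and none higher, beside 0.736% and 0.59% of all genes (median log2 fold change −0.62). Sprr1b, a protein of the cornified envelope, had 9.18, 7.10, 5.47 and 8.03 with E2 and 5.42, 5.17, 4.39, 4.96 and 4.75 with E2+Pg, where it was well above background in 1 mouse. The desmosome cadherin Dsc3 fell 2.08-fold. Of 18 keratins none was called, 16 had a log2 fold change below 0, and the median was −0.86. Krt5, a keratin of basal cells, had 11.27, 11.95, 11.40 and 10.52 with E2 and 7.68, 9.08, 8.60, 9.56 and 8.16 with E2+Pg, apart but not past the test (−2.67, standard error 0.71, limma adjusted p = 0.0683). Krt14, its basal partner, overlapped (−0.94, standard error 0.46, limma adjusted p = 0.322). Both keratins were picked from their results. Of the 12 basal and myoepithelial markers none was called (median −0.37), and their summed signal was 32096 to 43917 with E2 and 23095 to 38013 with E2+Pg. Of the 6 measured epidermal markers none was called (median −0.43), at a summed signal of 676 to 1525 with E2 and 635 to 790 with E2+Pg. The part of these cells in the keratin and squamous values was not tested.

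Few receptors and genes of hormone-sensing LCs passed the test. None of 18 measured hormone receptor genes was called (median −0.07). Esr1, the gene of ERα, read 10.76, 10.31, 10.89 and 10.70 with E2 and 9.79, 9.37, 9.57, 9.88 and 9.89 with E2+Pg. Pgr, the progesterone receptor gene, read 11.02, 11.18, 11.08 and 11.61 with E2 and 10.85, 10.46, 10.38, 10.53 and 10.29 with E2+Pg. Both were lower in every E2+Pg mouse by the brightest probe, but neither passed (Esr1 −0.97, standard error 0.34, limma adjusted p = 0.164, and Pgr −0.72, standard error 0.26, limma adjusted p = 0.172). Esr2 (−1.26, standard error 0.60) and Prlr, the prolactin receptor gene (−0.41, standard error 0.32), overlapped. Of 18 genes of hormone-sensing identity 2 were called higher and none lower, beside 0.59% and 0.736% of all genes. Yet 14 had a log2 fold change below 0 (median −0.62), and 8 were lower in every E2+Pg mouse, against 2.86% of all genes. The median stayed between −0.70 and −0.53 under the alternatives. Foxa1, a factor that opens chromatin for ERα (−0.74, standard error 0.26), Stc2, a secreted estrogen-induced protein (−1.08, standard error 0.29), and Cited1, a cofactor of ERα (−1.56, standard error 0.48), had limma adjusted p values of 0.161, 0.0697 and 0.106. These 3 were picked from their results. The 2 members that rose were Tox3, a chromatin protein (5.16, 5.27, 5.79 and 5.25 against 6.46, 6.48, 7.26, 6.62 and 7.37, 2.77-fold, limma adjusted p = 0.00538), and Grb7, a signaling adaptor (1.89-fold, limma adjusted p = 0.0416). Tox3 was well above background in 1 of 4 E2 mice and in all E2+Pg mice, and its dimmer probe differed by 0.46 on the log2 scale. Sox10, which marks luminal progenitors and also nerve-supporting cells, rose 2.82-fold, from 10.60, 10.43, 11.18 and 10.07 to 11.45, 12.00, 12.46, 12.00 and 12.40 (limma adjusted p = 0.00700). It was the called gene of 18 of luminal progenitor and alveolar fate (median 0.08). It was also the 1 called gene of the 10 muscle and nerve markers, whose median was −0.73. Over all genes 0.59% were called higher.

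**Figure D3:**
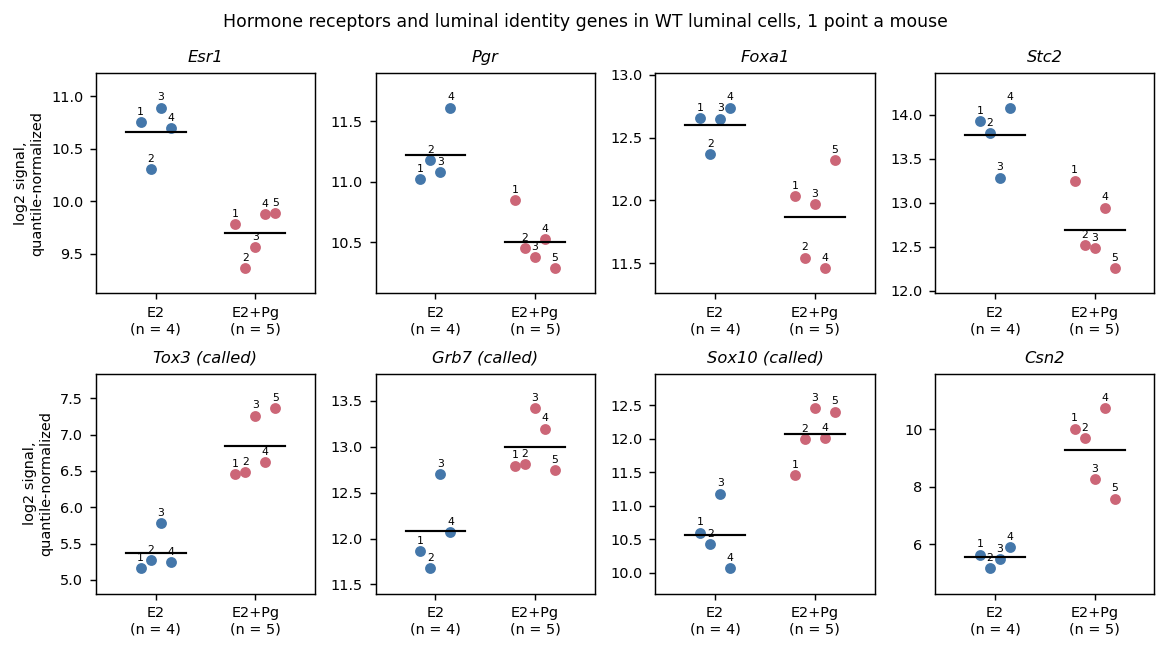
Log2 quantile-normalized signal (y axis) of 8 genes of hormone receptors, luminal identity and milk in LCs of WT mice with E2 (blue, n = 4) or E2+Pg (red, n = 5). Each point is 1 mouse with its number and lines are group means. Esr1, Pgr, Foxa1 and Stc2 lie lower in every E2+Pg mouse without passing the test, and Tox3, Grb7 and Sox10 rose.

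None of 26 milk and alveolar genes was called, 17 of them had a log2 fold change above 0, and the median was 0.18. Csn2, the gene of β-casein, had 5.64, 5.17, 5.49 and 5.91 with E2 and 10.03, 9.69, 8.28, 10.75 and 7.59 with E2+Pg. Every E2+Pg mouse was higher, but the spread over all 4 groups was wide and the gene did not pass (3.72, standard error 1.23, limma adjusted p = 0.138). Csn1s1 was also apart (2.22, standard error 1.16, limma adjusted p = 0.352), whereas Csn3, the gene of κ-casein, was lower in every E2+Pg mouse (−0.76, standard error 0.20, limma adjusted p = 0.0608). All 3 caseins were picked from their results.

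No gene on the mitosis and DNA replication lists was called. In 28 of 30 mitosis genes and 29 of 30 DNA replication genes the log2 fold change was above 0 (medians 0.34 and 0.40, against 0.04 over all genes). The average deviation of the mitosis genes ran from −0.18 to 0.63 with E2 and from 0.0022 to 0.73 with E2+Pg, so the mice overlapped. Of 24 ribosome biogenesis genes 23 were above 0 (median 0.31) and 10 were higher in every E2+Pg mouse, against 5.83% of all genes. Polr1b, a subunit of RNA polymerase I, was called (1.51-fold, limma adjusted p = 0.0272), a call that held under 11 of 23 alternatives. Fbl, the rRNA methyltransferase fibrillarin (picked from its result), reached 0.0152 by limma's adjusted p, but its fold change of 1.44 was under the threshold. Genes of MHC class II presentation had a median of 0.84 with none of 10 called. Their summed signal was 15869 in E2+Pg mouse 5, the mouse with high lymphocyte markers, 2175 to 7248 in the other E2+Pg mice and 1824 to 4419 with E2. Cd74, the invariant chain, was at 11.64 in that mouse, 8.10 to 10.14 in the other E2+Pg mice and 7.81 to 9.31 with E2, and H2-Aa had a log2 fold change of 1.11 (standard error 0.49, limma adjusted p = 0.269). The part of immune cells in these values was not tested.

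**Figure D4:**
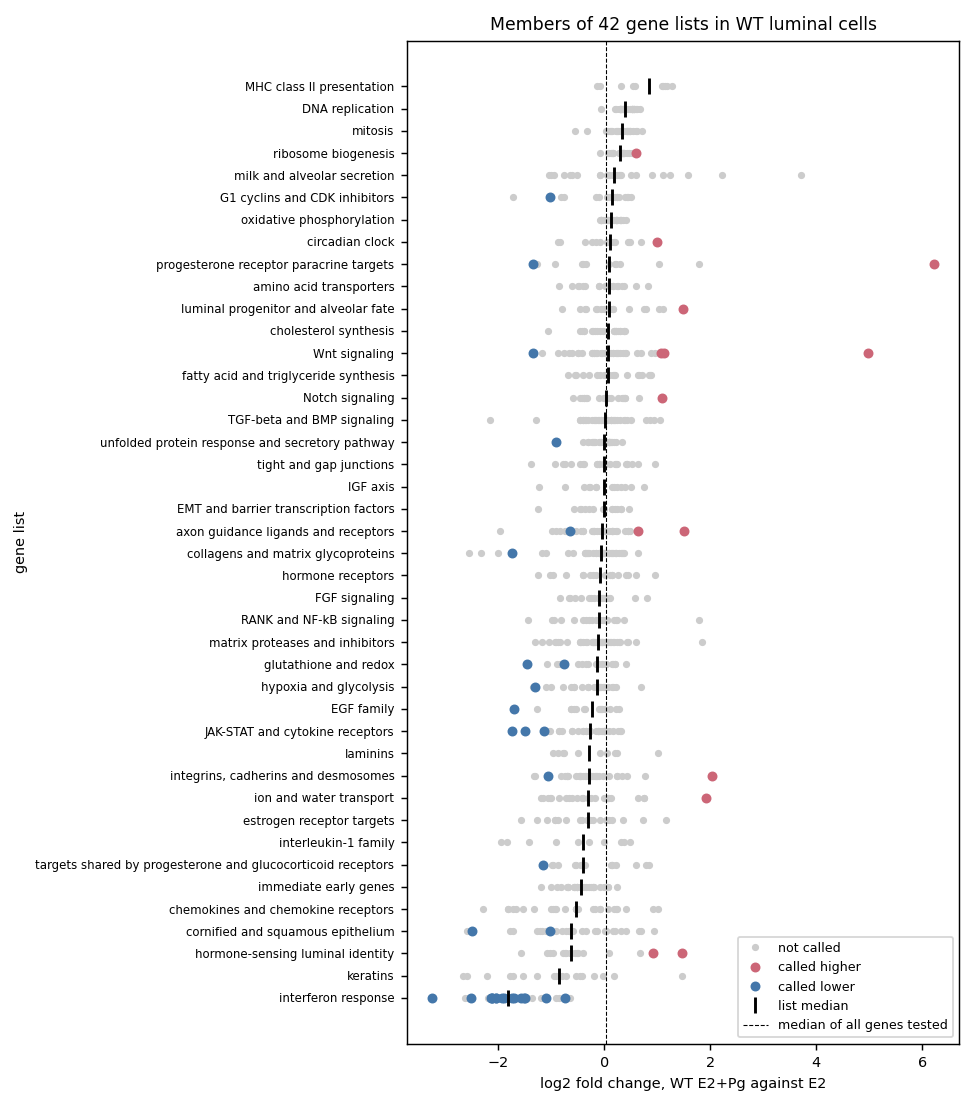
Log2 fold change of E2+Pg against E2 in WT LCs (x axis) for the measured members of 42 gene lists (rows). Grey points are genes not called, red called higher, blue called lower, black ticks the list medians, and the dashed line the median of all genes tested (0.04). The interferon list lies lowest (median −1.82), and Calca (6.23) and Rspo1 (4.97) lie farthest to the right.

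Among 10 further genes that the study names, none was called in this comparison. Greb1, an ERα cofactor gene, had a log2 fold change of −0.93 (limma adjusted p = 0.650), with 12.68, 12.39, 9.52 and 12.75 with E2 and 11.88, 11.50, 11.06, 11.02 and 9.05 with E2+Pg. Fn1, the gene of fibronectin, had 13.90, 14.14, 11.09 and 14.05 against 11.91, 11.83, 10.47, 11.12 and 11.12 (4.01-fold lower on average, limma adjusted p = 0.0807). In both genes E2 mouse 3 lay far below the other E2 mice. Stat5a, the transcription factor of prolactin signaling, was lower in every E2+Pg mouse (12.08 to 12.23 against 11.03 to 11.54), with −0.80 (standard error 0.26, limma adjusted p = 0.128). Snai1 (−1.25, standard error 0.48) and Fgfr3 (−0.56, standard error 0.20) were also apart without passing. Jak2 (−0.61, standard error 0.21), Fgb (−2.32, standard error 1.23), Tgfb3 (−0.20, standard error 0.45) and Bmp3 (0.94, standard error 0.57) overlapped. Mmp7 was not well above background in any E2 mouse and was so in 4 of 5 E2+Pg mice (at least 1.35-fold in the main settings, limma adjusted p = 0.198).

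The same comparison in C451A-ERα LCs, made in other mice, gave 212 higher genes (1.03%) and 297 lower genes (1.44%). Of the 122 genes higher in WT, 117 had the same sign there and 48 were called higher, and of the 152 lower genes 143 had the same sign and 50 were called lower. None was called in the opposite direction. Since the genes were chosen by their WT values, their smaller size in C451A-ERα (medians 0.68 against 1.06, and −0.70 against −1.18) is only a description. Calca (3.80, standard error 0.95), Rspo1 (3.25, standard error 0.76), Alox12e (3.26), Wnt5b (1.59) and Wnt5a (−1.57) were called in both genotypes. Of the 30 interferon genes 1 was called lower in C451A-ERα, Oas1a, and the median was −0.81. The difference between the genotypes was not called for any gene (limma, smallest adjusted p = 0.471, with 1938 genes at an unadjusted p below 0.05), so genes such as Sh3gl3 (2.52 in WT and 0.19 in C451A-ERα) or Sprr1b (−2.50 and −0.08) were not shown to differ. Without E2 mouse 3, 24 genes were called for the difference, 22 of them more negative in WT, among them Sprr1b (−3.08, standard error 0.46, limma adjusted p = 0.0108) and Oasl1 (−2.29, standard error 0.42, limma adjusted p = 0.0416). The median of the mitosis list was 0.34 in WT and −1.25 in C451A-ERα, with no member called in either genotype or for the difference.

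**Figure D5:**
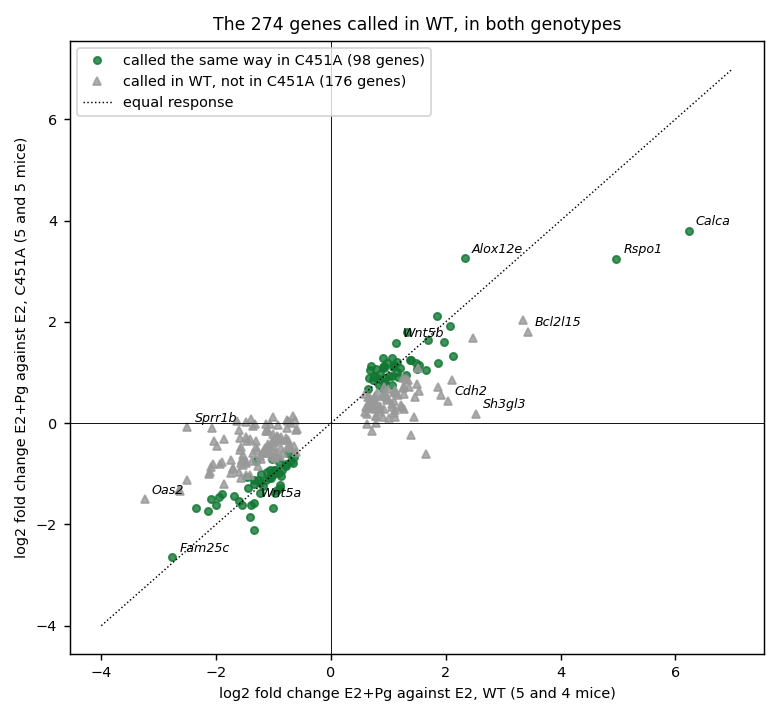
Log2 fold change of E2+Pg against E2 in WT (x axis, 5 and 4 mice) and C451A-ERα LCs (y axis, 5 and 5 mice) for the 274 genes called in WT. Green circles are the 98 genes called the same way in C451A-ERα, grey triangles the other 176, and the dotted line marks an equal response. Calca, Rspo1 and Alox12e lie high in both genotypes, and Sprr1b and Sh3gl3 lie near 0 in C451A-ERα.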

How the data were processed

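RNA of sorted LCs was amplified, labelled with Cy3 and hybridized by the authors to single-colour Agilent arrays, read with Agilent Feature Extraction 10.10.1.1 per the labels. The deposited scanner files hold the intensity of each spot, and the deposited value table holds the authors' normalized log2 values, which were used as an alternative. Here control spots and outlier spots were left out, and the median intensity was quantile-normalized over 19 arrays and log2-transformed. Probes well above background on at least 4 arrays were kept (31843 probes, 20666 genes by the brightest probe). Of all probes, 33881 were named by accession, 9958 by symbol through RefSeq and 12766 kept the name of the file. Probe positions are those of the files (mm9).

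Groups were compared with limma 3.58.1 in R 4.3.3, as 4 group means over all 19 arrays, with Benjamini-Hochberg adjustment. Single values were compared by two-sided exact permutation tests. The script was tested on simulated data. Slides were read from the array identifiers, and mice are numbered within a group in sample order, which pairs nothing. Nothing in the labels says more of the replicates than that each is a separate sample, so p-values measure the spread between these samples, and their number limits the precision. Where a probe was not well above background in any mouse of a group, the fold is a bound against the dimmest signal well above background on each array, or the probe's own signal if higher.

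The members, gene lists and tests were chosen with earlier results of these data known. Named genes were the 15 largest rises and the 15 largest falls among called genes with a RefSeq symbol, the members of the paracrine, shared-target and hormone receptor lists, up to 6 called members per direction of other lists, and 10 genes that the study names. Others are said to have been chosen after their values were seen, and so were the further interferon genes. Promoters were searched in 250 bases before the start only, narrower than first planned. Alternatives changed the arrays fitted, the slide block, background correction, normalization, filter, probe rule, weights and fold threshold, and left out each WT mouse. Some called genes counted in the lists are not reported here.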

Additional observations from a re-analysis of the deposited data

Results flagged for a closer look

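In 14 of 226 sets of values, each a gene or a list in 1 group, the highest or lowest mouse was far from the others by Dixon's test, which chance alone does in about 1 in 20. E2 mouse 3 was the low one for Fn1 (11.09), Greb1 (9.52), Jak2 (10.18) and Tgfb3 (12.59). E2+Pg mouse 5 was low for Cdh2 (6.39) and high for Tnfrsf11a (9.28), for the lymphocyte markers (average deviation 1.70) and for the skeletal muscle and nerve markers (2.01). E2+Pg mouse 4 was high for Apol9a (10.83) and Socs1 (8.22) and low for Stat5a (11.03). E2+Pg mouse 1 was high for Hk2 (9.28). Krt14 was high in E2+Pg mouse 2 (13.64) and Esr2 was low in E2 mouse 1 (10.51).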

How the results depend on the processing

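No paired analysis was possible because mouse numbers follow the order of the samples and mark no shared animal or litter. Slides did pair mice of both groups, on 4 of 5 slides, and were used as blocks. The main count was 122 higher and 152 lower genes, 274 in all. With the slide as a fixed block it was 35 and 41 (76 in all), with the slide as a random block 75 and 93 (168), with array weights 744 and 895 (1639), and with only the 4 shared slides and a slide block 2 and 0 (2). Scaling to the 75th percentile gave 81 higher and 113 lower genes, no filter on dim probes 78 and 105, and the values normalized by the authors 182 and 208. The 9 WT arrays fitted alone gave 168 higher and 144 lower genes, of which 88 and 79 were also called in the main fit. Leaving out 1 WT mouse gave 15 to 235 higher and 14 to 391 lower genes, 29 to 577 in all. The difference between genotypes had 0 calls with all mice and 0 to 24 with 1 mouse left out. Higher genes were 44.5% of those called, 53.8% with the 9 WT arrays alone, 54.7% without E2+Pg mouse 1, 32.7% without E2+Pg mouse 4 and 32.2% without E2 mouse 3. Of the genes with values above, 3 uncalled ones changed sign, and so did 5 further uncalled members of the named lists. With 1 mouse left out, the log2 fold change of Ccnd1 ran from −0.0819 (without E2+Pg mouse 5) to 0.403, that of Wnt4 from −0.279 (without E2 mouse 2, and also below 0 without E2+Pg mouse 5) to 0.55, and that of Zbtb16 from −0.175 (without E2 mouse 2, and also below 0 without E2+Pg mouse 5) to 0.436. The log2 fold change of Calca was 5.18 with normexp correction, 8.78 with the processed signal and 3.74 with the mean of its probes. The cause of these changes was not tested. Signal over background limits Calca, Tnfsf11 and Mmp7, whose probes were not well above background in any E2 mouse.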

Other observations

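Immediate early genes, which respond within minutes to growth factors and to handling of cells, had a log2 fold change below 0 in 24 of 27 members (median −0.44), with none called. Of 32 measured genes of oxidative phosphorylation 26 were above 0 (median 0.12), and of 28 chemokines and their receptors 21 were below 0 (median −0.54), again with none called. Among 9 endothelial markers 8 were above 0 (median 0.38).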
